A study of Mus musculus with 12 samples.

Results

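The change in RNA levels that loss of Runx3 gave in RM and in CD11b+ DC alike was read from all 12 of the 12 arrays of the series. RM, the resident macrophages, and DC, dendritic cells that here carry CD11b, are mononuclear phagocytes of the gut wall, and the study asked what the absence of the transcription factor Runx3 does to their expression programs. Each array was placed by its labels for cell type and genotype, and the members are 7 samples labelled Runx3 -/- (4 of RM and 3 of DC) and 5 labelled Runx3 +/+ (3 of RM and 2 of DC). RNA of freshly sorted cecal cells was measured with Affymetrix mouse arrays, and the values are normalised log2 intensities, so that a difference of 1 is a factor of 2 in signal. Sorted RM were CD45+, CD11c+, MHCII+, CD11b+, F4/80+ and Ly6c-, whereas sorted DC carried the same markers without F4/80.

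All mice were on the C57Bl/6 background and 6-8 weeks old, and each sample pooled the cells of 3-4 mice. Mice of both sexes were used, but the share of each sex in a pool is not given in the sources used here. The Runx3 -/- groups come from Runx3 fl/fl mice crossed onto CD11c-Cre, in which exon 3, part of the DNA-binding domain, is removed from cells in which the CD11c promoter is active. The label Runx3 -/- therefore stands for a deletion in CD11c-expressing cells of a mouse whose other cells keep the gene, and the loss is not limited to RM and DC. Whether the Runx3 +/+ mice carried floxed alleles or Cre is not given in the sources used here. Littermate numbers in the labels run from 1 to 4: +/+ RM came from litters 1, 2 and 3, -/- RM from litters 1, 2, 3 and 4, +/+ DC from litters 2 and 3, and -/- DC from litters 1, 3 and 4. Litter 4 thus holds no +/+ sample. Since RM and DC of a litter may come from the same animals, and the labels do not say how many independent pools lie behind the samples, p-values measure the spread between these samples only.

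Runx3 belongs to the RUNX family, whose members bind DNA through a conserved Runt domain together with the partner Cbfb and, depending on the site, activate or repress transcription. In myeloid cells Runx3 is known to act downstream of TGF-β and to restrain the maturation and inflammatory output of DC. RM of the colon derive from blood monocytes, take up dying cells and microbes, and keep a tolerant state that depends on IL-10.

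The common difference was defined as -/- minus +/+ with cell type as a covariate, which gives the RM samples 58.8% and the DC samples 41.2% of the weight. It was fitted with limma over all 35556 rows of the table, and adjusted p-values are Benjamini-Hochberg values over those rows with a threshold of 0.05. The genotypes of a gene are said not to overlap when, within a cell type, every -/- sample lies on the same side of every +/+ sample.

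The labelled cell types were checked against their markers. *Adgre1*, which encodes F4/80, lay between 11.57 and 11.94 in the RM samples and between 9.16 and 9.81 in the DC samples. *Flt3*, a growth factor receptor of DC, lay between 6.51 and 7.36 in RM and between 9.99 and 10.21 in DC, and the DC transcription factor *Zbtb46* between 5.47 and 5.87 in RM and between 6.88 and 7.33 in DC. None of the 3 ranges overlapped between the cell types.

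*Runx3* itself read 9.83, 9.48 and 9.76 in the 3 Runx3 +/+ RM samples and 10.18, 9.87, 9.88 and 9.85 in the 4 Runx3 -/- RM samples. It read 10.11 and 9.99 in the 2 +/+ DC samples and 10.14, 10.01 and 9.97 in the 3 -/- DC samples. In RM the -/- samples lay just above the +/+ samples and in DC the ranges overlapped, and the common difference was 0.15 ± 0.09 (SE; adjusted p = 0.582). Where the probes of this row lie relative to exon 3 is not given in the sources used here, so the array value does not check the genotype labels. *Runx1*, a family member, and *Cbfb* had common differences of -0.06 and -0.0004, and the sign of each turned in at least one alternative setting.

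In both cell types together, 16 rows rose and 9 fell without Runx3. These are 0.045% and 0.0253% of all rows. The rows that rose include 4 named genes: *Ccl24*, an eosinophil-attracting chemokine, *Pdcd1lg2*, the PD-1 ligand PD-L2, *Nlrc5*, the transactivator of MHC class I genes, and *Bcl2l14*, a member of the Bcl-2 family. The 9 rows that fell belong to 9 genes, of which *P3h2*, a collagen-modifying prolyl hydroxylase, *Rcan1*, an inhibitor of calcineurin, and *Mtss1*, an actin and membrane regulator, had the largest differences. Common differences of the called rows ran from 0.60 to 2.09 upward and from -1.36 to -0.45 downward, while over all rows the median was 0.02, with 55.9% of rows above 0 and 44% below. In bulk samples a higher share of cells that express a gene and more RNA per cell cannot be told apart.

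Every one of the 25 called rows moved the same way in RM and in DC, and none had overlapping genotypes in either cell type. Without any p-value, 0.97% of all rows lay higher and 1.18% lower in this sense. When each cell type was read alone in the 4-group fit, 3 of the 25 rows also passed in RM and 0 in DC, so that 22 passed only with both cell types together. RM alone had 3 rows higher (0.00844%) and 2 lower (0.00562%), and DC alone had 0 by limma's adjusted p. All 25 had an unadjusted p under 0.05 in RM and also in DC. These rows were chosen by the common fit of the same samples, so their agreement between the cell types is no independent evidence. Of the 25 rows, 8 belong to *Nlrc5*.

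Litter was used as a block in 2 ways. As a random block, with a fitted correlation of 0.0369 within a litter, 20 rows passed upward and 12 downward. As a fixed block, called the block from here on, 0 of the 35556 rows passed. At an unadjusted p under 0.05 there were 3390 rows with the block, against 4088 without it. The adjusted p of the 25 rows ran from 0.054 to 0.14 with the block. All 25 kept their direction and an unadjusted p under 0.05 with the block, which is no independent evidence either, since they were chosen on the same samples. With 1 row for each of 19938 genes, the brightest, 46 genes passed upward and 99 downward, and with the litter block as well 26 and 81. The 12 called genes that are read by their brightest row passed in both of these fits, and their values are given beside each gene. The fit with the block and 1 row per gene was chosen after seeing the data. In another fit so chosen, over all rows of the litters with both genotypes, *Rcan1* passed by limma's adjusted p (0.0437). The others of the 12 did not, with adjusted p-values from 0.108 (*Pdcd1lg2*) to 0.173 (*Ccl24*). Over all 26 alternatives each of the 12 kept its direction and passed in 8 to 17, with adjusted p-values from 0.00297 to 0.173, and each lost its call when +/+ RM replicate 2 or 3, -/- RM replicate 2 or 4, +/+ DC replicate 1 or -/- DC replicate 3 was left out. Leaving out +/+ RM replicate 1 raised the counts over all rows to 57 and 68, and leaving out any other sample gave 1 to 21 rows upward and 0 to 8 downward.

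**Figure D1:**
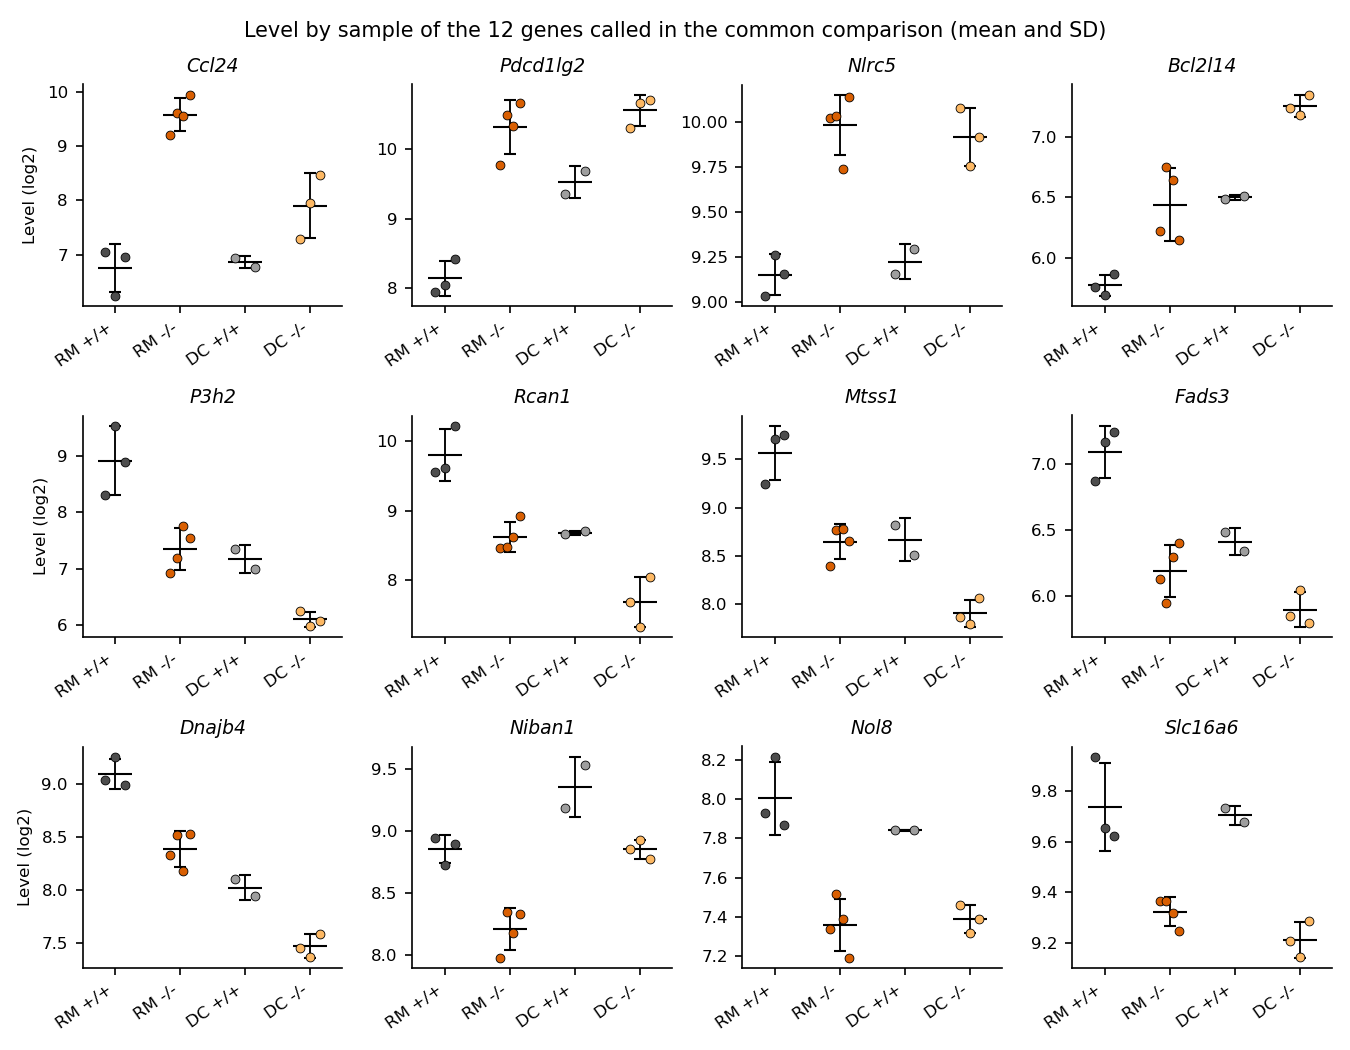
Level (log2 intensity) in each of the 12 samples of the 12 genes called in the common comparison; each point is 1 sample, the horizontal bar is the group mean and the error bars are 1 SD. The y axes differ between panels and do not start at 0. In each panel the -/- points lie all above or all below the +/+ points of the same cell type.

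*Ccl24* (row 10534493) encodes eotaxin-2, which recruits eosinophils through the receptor CCR3. It read 7.05, 6.25 and 6.96 in +/+ RM and 9.20, 9.60, 9.56 and 9.94 in -/- RM. In DC it read 6.94 and 6.78 in +/+ DC and 7.28, 7.96 and 8.47 in -/- DC. The +/+ samples of both cell types sat near one level, and the -/- RM lay farther above it than the -/- DC. The common rise was 2.09 ± 0.33 (95% interval 1.38 to 2.80; 4.25-fold; adjusted p = 0.0483), made of 2.82 in RM and 1.04 in DC. The adjusted p was 0.128 with the litter block, 0.0129 with 1 row per gene and 0.0186 with both.

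*Pdcd1lg2* (row 10462398) encodes PD-L2, one of the ligands through which phagocytes inhibit T cells that carry PD-1. Its level was 7.95, 8.05 and 8.43 in +/+ RM and 9.77, 10.50, 10.34 and 10.67 in -/- RM. In DC the level was 9.36 and 9.69 in +/+ DC and 10.30, 10.67 and 10.71 in -/- DC. The +/+ DC lay above the +/+ RM, while the -/- samples of both cell types reached the same range. The rise was 1.71 ± 0.22 (95% interval 1.22 to 2.19; 3.27-fold; adjusted p = 0.0281), with 2.18 in RM and 1.04 in DC. The adjusted p was 0.0607 with the block, 0.00715 with 1 row per gene and 0.00377 with both. *Cd274*, which encodes the other ligand, PD-L1, had a common difference of 0.14 (adjusted p = 0.672).

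*Nlrc5* (row 10574149) switches on the genes of MHC class I and of the peptide-loading machinery. The row of highest level read 9.04, 9.26 and 9.15 in +/+ RM and 10.02, 10.03, 9.74 and 10.13 in -/- RM. The DC values of that row were 9.15 and 9.29 in +/+ DC and 10.08, 9.75 and 9.92 in -/- DC. The genotypes formed separate ranges that were alike in RM and DC. The rise was 0.77 ± 0.09 (95% interval 0.58 to 0.96; 1.71-fold; adjusted p = 0.024), with 0.83 in RM and 0.69 in DC, and the adjusted p was 0.0808 with the block, 0.00562 with 1 row per gene and 0.00784 with both. The table holds 19 rows for this gene, with mean levels from 6.43 to 9.63. Their common differences ran from 0.39 to 0.77 with a median of 0.60, 8 rows passed the test, and in 16 rows the genotypes did not overlap in either cell type. The rows read parts of one transcript in the same 12 samples, so they are not independent measurements.

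**Figure D2:**
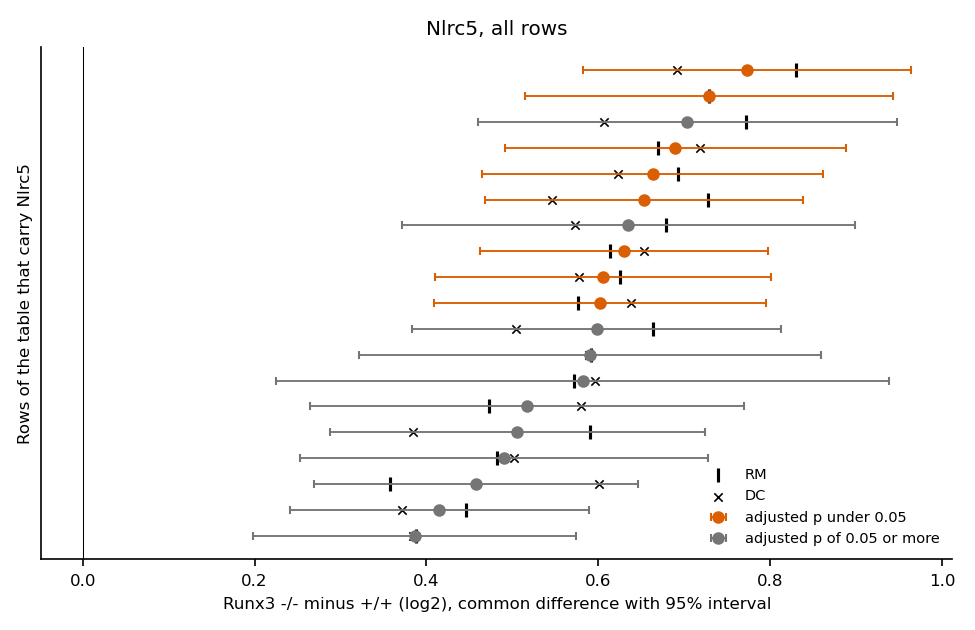
Common difference (Runx3 -/- minus +/+, log2) of each of the 19 rows that carry *Nlrc5*, in order of size, with its 95% interval; orange rows passed the test, vertical ticks are the difference in RM and crosses that in DC. All 19 points, and every tick and cross, lie above 0.

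*Bcl2l14* (row 10542287) encodes Bcl-G, a Bcl-2 family protein found in gut epithelium and DC. It read 5.76, 5.69 and 5.86 in +/+ RM and 6.22, 6.75, 6.64 and 6.15 in -/- RM. It read 6.48 and 6.52 in +/+ DC and 7.24, 7.18 and 7.35 in -/- DC. The DC samples lay above the RM samples of the same genotype, and in both the -/- samples were the higher. The rise was 0.71 ± 0.11 (1.63-fold; adjusted p = 0.0432), with 0.67 in RM and 0.76 in DC. The adjusted p was 0.0964 with the block, 0.0129 with 1 row per gene and 0.0124 with both.

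Of the other rows that rose, 3 carry no gene symbol and 2 carry several, so no gene is named for them. Row 10398039 had the smallest adjusted p of the table, 0.00182, at a common difference of 1.48 ± 0.12, with 1.57 in RM and 1.36 in DC. The other unnamed rows, 10346191 and 10452316, rose by 1.04 and 1.49, and the rows with several symbols, 10385533 and 10496592, by 1.00 and 1.05.

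*P3h2* (row 10438753), a prolyl 3-hydroxylase that modifies collagen chains, had the largest called fall. It read 8.31, 9.54 and 8.90 in +/+ RM and 6.93, 7.18, 7.75 and 7.54 in -/- RM. In DC it read 7.35 and 6.99 in +/+ DC and 6.25, 5.99 and 6.07 in -/- DC. The -/- RM lay around the level of the +/+ DC, some above and some below it, and the -/- DC lay below all other samples. It fell by 1.36 ± 0.21 (95% interval -1.81 to -0.91; adjusted p = 0.0446), with -1.57 in RM and -1.07 in DC. The adjusted p was 0.128 with the block, 0.0129 with 1 row per gene and 0.0195 with both.

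*Rcan1* (row 10440993) encodes a feedback inhibitor of calcineurin, the phosphatase that activates NFAT. It read 9.55, 9.61 and 10.22 in +/+ RM and 8.46, 8.47, 8.62 and 8.92 in -/- RM. It read 8.66 and 8.70 in +/+ DC and 7.70, 7.34 and 8.05 in -/- DC. One of the +/+ RM samples was above the rest, and the -/- samples lay below their +/+ counterparts throughout. It fell by 1.09 ± 0.15 (95% interval -1.42 to -0.77; adjusted p = 0.0281), with -1.17 in RM and -0.99 in DC, and the adjusted p was 0.054 with the block, 0.00715 with 1 row per gene and 0.00297 with both.

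*Mtss1* (row 10428857) encodes a protein that couples membrane curvature to actin. Its values were 9.25, 9.71 and 9.75 in +/+ RM and 8.40, 8.77, 8.78 and 8.65 in -/- RM. They were 8.83 and 8.51 in +/+ DC and 7.87, 7.79 and 8.06 in -/- DC. RM exceeded DC in each genotype, and the step between genotypes was alike in both. It fell by 0.85 ± 0.11 (adjusted p = 0.0281; 0.0808 with the block, 0.00715 with 1 row per gene and 0.0076 with both).

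*Fads3* (row 10461423), a member of the fatty acid desaturase family, read 6.87, 7.16 and 7.24 in +/+ RM and 6.12, 5.94, 6.29 and 6.40 in -/- RM. It read 6.48 and 6.34 in +/+ DC and 5.85, 6.04 and 5.79 in -/- DC. The highest -/- RM sample reached the range of the +/+ DC and the others lay below it. It fell by 0.74 ± 0.11 (adjusted p = 0.0429; 0.108 with the block, 0.0129 with 1 row per gene and 0.0175 with both). *Dnajb4* (row 10502823), a co-chaperone of the Hsp40 family, read 9.04, 9.25 and 8.99 in +/+ RM and 8.33, 8.51, 8.18 and 8.53 in -/- RM. It read 8.11 and 7.94 in +/+ DC and 7.46, 7.37 and 7.59 in -/- DC. The 4 groups formed a ladder, with RM above DC and +/+ above -/-, and no groups overlapped. It fell by 0.64 ± 0.09 (adjusted p = 0.0281; 0.054 with the block, 0.00889 with 1 row per gene and 0.00466 with both).

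*Niban1* (row 10350630), a stress-induced regulator of translation, read 8.94, 8.73 and 8.89 in +/+ RM and 7.98, 8.35, 8.18 and 8.33 in -/- RM. It read 9.19 and 9.53 in +/+ DC and 8.85, 8.93 and 8.78 in -/- DC. Unlike the falling genes above, it was higher in DC than in RM of the same genotype. It fell by 0.59 ± 0.09 (adjusted p = 0.0445; 0.118 with the block, 0.0134 with 1 row per gene and 0.0215 with both). *Nol8* (row 10405074), a nucleolar protein, read 7.93, 8.22 and 7.87 in +/+ RM and 7.34, 7.52, 7.39 and 7.19 in -/- RM. It read 7.84 and 7.84 in +/+ DC and 7.46, 7.32 and 7.39 in -/- DC. RM and DC of the same genotype lay close together. It fell by 0.57 ± 0.08 (adjusted p = 0.0429; 0.12 with the block, 0.0129 with 1 row per gene and 0.0275 with both), which is less than 1.5-fold.

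*Slc16a6* (row 10392440), of the monocarboxylate transporter family, read 9.94, 9.66 and 9.62 in +/+ RM and 9.37, 9.37, 9.32 and 9.25 in -/- RM. It read 9.73 and 9.68 in +/+ DC and 9.21, 9.15 and 9.29 in -/- DC. The groups were separated by little, with tight replicates. It fell by 0.45 ± 0.07 (adjusted p = 0.0446; 0.117 with the block, 0.0159 with 1 row per gene and 0.0297 with both), also under 1.5-fold. The remaining called row belongs to *Ssh2*, a phosphatase that activates the actin-severing protein cofilin, and is the dimmer of its 2 rows. That row fell by 0.65 (adjusted p = 0.0445; 0.122 with the block), and the brighter row had a difference of -0.43 (adjusted p = 0.0618).

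Samples of both genotypes from one litter exist in 4 pairs from 3 litters, namely litters 1, 2 and 3 of RM and litter 3 of DC. Since the genotypes of the 12 genes did not overlap, the sign within each pair was already fixed, and only the size is given here. *Ccl24* was 2.15, 3.35 and 2.60 higher in the -/- RM of litters 1, 2 and 3, and 1.18 higher in the -/- DC of litter 3.

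RUNX proteins recognise the motif TGTGGT and its variant TGCGGT, and the promoters of the leading genes were searched for it because these genes moved together. RefSeq windows of 300 bases (GRCm38.p6, 250 bases before the start and 50 after) were searched for both on either strand. Windows were matched by symbol for 14 of 24 genes, the 12 called genes and the 12 named by size below, and 3 of these genes hold a motif (21.4%), against 6764 of all 27025 genes with a window (25%). The stretches around the motifs are shown 5′ to 3′ on the gene's strand, with the motif or its reverse complement in capitals.
*Pdcd1lg2*, chr19:29410908-29410937, plus strand: tcaaggatcgtgACCACAtcatttttgttc
*Bcl2l14*, chr6:134414444-134414473, plus strand, in one of its 2 windows: ttaagcctcagaTGTGGTcccaaacctgag
*Fcrls*, chr3:87263548-87263577, minus strand: gatccctgctgaACCACAgtgttctatccc
*Fcrls*, chr3:87263525-87263554, minus strand: ctatcccagatcTGTGGTccatctgcccta
The motif begins at base 2 from the start in *Pdcd1lg2*, at base 29 in *Bcl2l14*, and at bases -41 and -18 in *Fcrls*, a scavenger-like Fc receptor relative described below. Such a match is a stretch of letters and was not tested for binding.

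The study's own thresholds, a 1.5-fold change with an unadjusted p of 0.05 or less, were applied to limma's p. At these, 149 rows were higher (0.419%) and 222 lower (0.624%), so that 40.2% of these rows were higher. The largest of these differences did not pass the adjusted test over all rows, although the genotypes did not overlap. *Nos2*, the inducible nitric oxide synthase, read 5.64, 5.32 and 5.67 in +/+ RM and 7.23, 9.12, 7.90 and 8.71 in -/- RM. It read 4.94 and 5.42 in +/+ DC and 6.05, 6.79 and 7.88 in -/- DC. The +/+ samples of both cell types were low and close together, and the -/- samples were spread over a wide range above them. The difference was 2.30 ± 0.37 (adjusted p = 0.0521; 0.0134 with 1 row per gene and 0.0076 with the block as well). *Slc7a2*, which carries arginine, the substrate of Nos2, into the cell, read 6.85, 5.72 and 7.15 in +/+ RM and 7.97, 9.84, 9.01 and 9.44 in -/- RM. It read 5.51 and 5.54 in +/+ DC and 6.33, 6.92 and 8.53 in -/- DC. Within each cell type its -/- samples stood in the same order as those of *Nos2*. The difference was 2.18 ± 0.42 (adjusted p = 0.0888; 0.0225 with 1 row per gene and 0.0297 with the block as well).

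Others of this kind on the upper side were *Ly6i*, a GPI-anchored surface protein of the Ly6 family, at 2.05, adjusted p = 0.0888, and *Cfb*, complement factor B, at 1.54, adjusted p = 0.0678. *Tarm1*, which activates myeloid cells through a signaling adaptor, stood at 1.41, adjusted p = 0.113, and *Dmbt1*, a mucosal protein that binds bacteria, at 1.39, adjusted p = 0.0843. *Procr*, the receptor of protein C, stood at 1.38, adjusted p = 0.0923, and *Clca3b*, of the chloride channel regulator family, at 1.38, adjusted p = 0.0618. With 1 row per gene all of these passed (adjusted p from 0.0169 for *Clca3b* to 0.0364 for *Tarm1*), and with the block added *Dmbt1* and *Clca3b* remained below 0.05 (0.00867 and 0.0154), whereas *Ly6i*, *Cfb*, *Tarm1* and *Procr* did not (0.0825, 0.0532, 0.114 and 0.0764).

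On the lower side, *Fcrls* read 10.55, 10.97 and 11.08 in +/+ RM and 9.51, 9.05, 10.08 and 10.10 in -/- RM. It read 10.54 and 9.92 in +/+ DC and 6.60, 8.42 and 8.19 in -/- DC. The genotypes lay farther apart in DC than in RM, and one -/- DC sample was far below the rest. The common difference was -1.72 ± 0.35 (adjusted p = 0.0995; 0.0295 with 1 row per gene and 0.0227 with the block as well). *Ifnb1*, which encodes interferon-β, read 7.15, 6.24 and 7.74 in +/+ RM and 4.88, 4.98, 5.30 and 5.85 in -/- RM. It read 5.79 and 5.69 in +/+ DC and 4.86, 4.38 and 5.03 in -/- DC. The +/+ RM were the highest and most spread, and in DC the genotypes were closer together. The difference was -1.46 ± 0.27 (adjusted p = 0.0725; 0.02 with 1 row per gene and 0.0065 with the block as well).

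*Tnf*, the inflammatory cytokine, read 10.72, 11.53 and 11.07 in +/+ RM and 9.21, 10.05, 10.06 and 10.56 in -/- RM. It read 10.40 and 9.82 in +/+ DC and 8.14, 8.98 and 9.59 in -/- DC. The -/- ranges came close to the +/+ ranges without touching them. The difference was -1.17 ± 0.27 (adjusted p = 0.144; 0.0482 with 1 row per gene and 0.00157 with the block as well). *Ifit1*, an interferon-induced RNA-binding protein, differed by -1.29 (adjusted p = 0.133; 0.0414 with 1 row per gene and 0.0112 with the block as well).

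**Figure D3:**
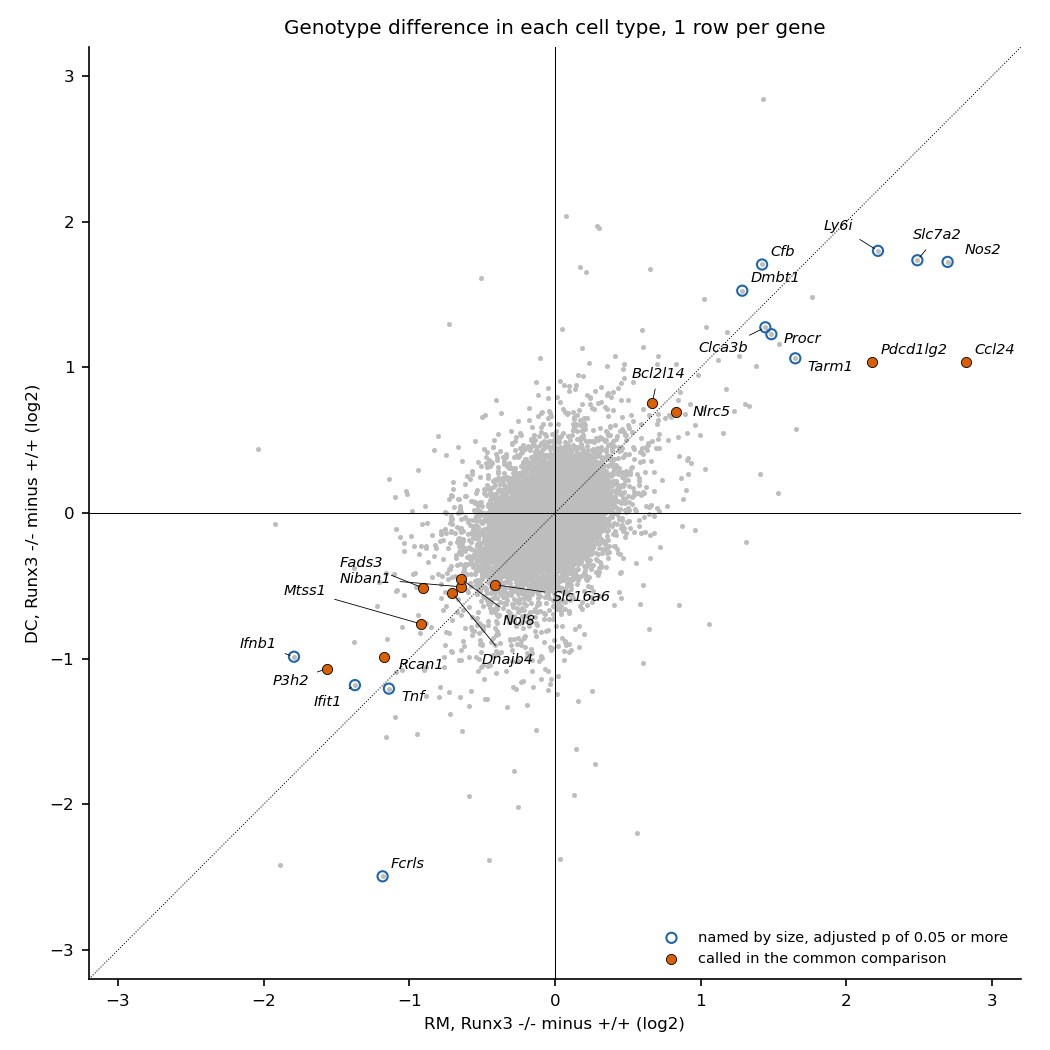
Difference between genotypes (Runx3 -/- minus +/+, log2) in RM, x axis, against that in DC, y axis, for 19938 genes, 1 row per gene; the dotted diagonal marks equal differences. The 12 called genes (orange) and the 12 genes named by size that did not pass over all rows (blue circles) lie in the upper right and lower left quadrants, with *Ccl24* and *Pdcd1lg2* on the RM side of the diagonal and *Fcrls* on the DC side.

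The RM and DC comparisons share no array, though they share litters. At the study's thresholds, applied here to limma's p, 0.728% of all rows were higher and 0.731% lower in RM, and 0.633% were higher and 1.5% lower in DC. The study applied them to ANOVA p-values, so these rows, unnamed ones included, are not its gene lists. Of 114 rows with 1 symbol that were higher in -/- RM at the study's thresholds, 100 were also above 0 in DC (87.7%), against 52.8% of all rows with 1 symbol. Of 178 rows lower in RM, 154 were below 0 in DC (86.5% against 47.1%). Read the other way, 104 of 124 rows higher in DC were above 0 in RM (83.9% against 52.9%), and 213 of 260 rows lower in DC were below 0 in RM (81.9% against 47.1%). Over all rows, unnamed ones included, the shares were lower: 176 of 259 rows higher in RM were above 0 in DC (68% against 52.2%) and 214 of 260 lower in RM were below 0 (82.3% against 47.8%), while 175 of 225 higher in DC were above 0 in RM (77.8% against 56.4%) and 352 of 533 lower in DC were below 0 (66% against 43.6%). Rows with 1 symbol past the thresholds in both cell types numbered 35 upward and 36 downward. These counts are of rows and not of genes. More than 1 row of *Nlrc5*, reading parts of the same transcript, is among the 35 and among the 114. Across the 21789 rows with 1 symbol the differences in RM and in DC had a correlation of 0.435, and across all rows 0.283, which describes these samples only, since genes are not independent and the cells of a litter may share animals.

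Whether the effect of genotype differed between RM and DC was tested as an interaction, and 0 of 35556 rows passed by limma's adjusted p (lowest 0.83), with 1391 (3.91%) at an unadjusted p under 0.05. Of the 25 called rows, *Ccl24* and *Pdcd1lg2* had an unadjusted interaction p under 0.05 (0.00176 and 0.00488). The RM difference exceeded the DC difference by 1.78 in *Ccl24* and by 1.14 in *Pdcd1lg2*.

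The smallest interaction p-values belonged to the following genes. *B3galt5*, a galactosyltransferase, differed by -1.92 in RM and -0.08 in DC (unadjusted p = 9.51e-05), and *Il22ra2*, the decoy receptor of IL-22, by -2.04 and 0.44 (unadjusted p = 0.000161). *Cd209c*, a C-type lectin, differed by 0.16 in RM and -1.29 in DC (unadjusted p = 0.000112), and *Rad51c*, a DNA repair protein, by -0.70 and 0.21 (unadjusted p = 0.000102). *Lrrc1* (0.05 and -0.77) and *Gas2l3*, a cytoskeletal linker (-0.53 and 0.35), had unadjusted p-values of 0.000212 and 0.000257. None of the 6 passed after adjustment.

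Gene lists were described by the common differences of their members, 1 row per gene. Over all 19938 genes the median was 0.01, 53.6% lay above 0, 0.401% were higher and 0.672% lower at the study's thresholds, and 0.948% lay higher and 1.7% lower with no overlap in either cell type.

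Interferon-γ drives antigen processing and GTPases that attack microbes in vacuoles. Of 25 measured genes of its response, 23 lay above 0 and 2 below, 7 were higher at the study's thresholds and 0 lower, and the median was 0.37 (0.36 in RM and 0.53 in DC). The list mean, against the +/+ mean of the cell type, was -0.08, -0.12 and 0.21 in the +/+ RM samples and 0.07, 0.56, 0.33 and 0.48 in the -/- RM samples. In DC it was -0.10 and 0.10 in +/+ and 0.33, 0.52 and 0.59 in -/-. The genotypes were apart in DC, while in RM the lowest -/- sample, replicate 1, lay within the +/+ range. *Nlrc5* passed the adjusted test. *Cxcl9*, a chemokine for T cells, differed by 1.19, adjusted p = 0.0586 (0.0153 with 1 row per gene and 0.0327 with the block as well), and *Tap1*, the peptide transporter of MHC class I loading, by 0.57, adjusted p = 0.0618. *Iigp1*, an immunity-related GTPase, stood at 1.09, adjusted p = 0.0751, and *Batf2*, a transcription factor of activated macrophages, at 0.83, adjusted p = 0.0833.

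Type I interferon, sensed through a receptor of its own, induces antiviral proteins. Of 25 measured genes of this response 4 lay above 0 and 21 below, 0 were higher and 9 lower at the study's thresholds, none passed the adjusted test, and the median was -0.23 (-0.42 in RM and -0.13 in DC). The list mean in RM was -0.10, -0.37 and 0.47 in +/+ and -0.84, -0.52, -0.54 and -0.41 in -/-, and in DC -0.23 and 0.23 in +/+ and -0.35, -0.12 and -0.18 in -/-. All 4 -/- RM samples lay below the +/+ RM samples, whereas in DC the ranges overlapped. Besides *Ifnb1* and *Ifit1*, the members at the thresholds were *Mx2* (-1.22), *Ifit3* (-0.86), *Mx1* (-0.84), *Oasl1* (-0.82), *Ifit2* (-0.75), *Rsad2* (-0.73) and *Ifih1*, the sensor MDA5, at -0.78, adjusted p = 0.0618.

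**Figure D4:**
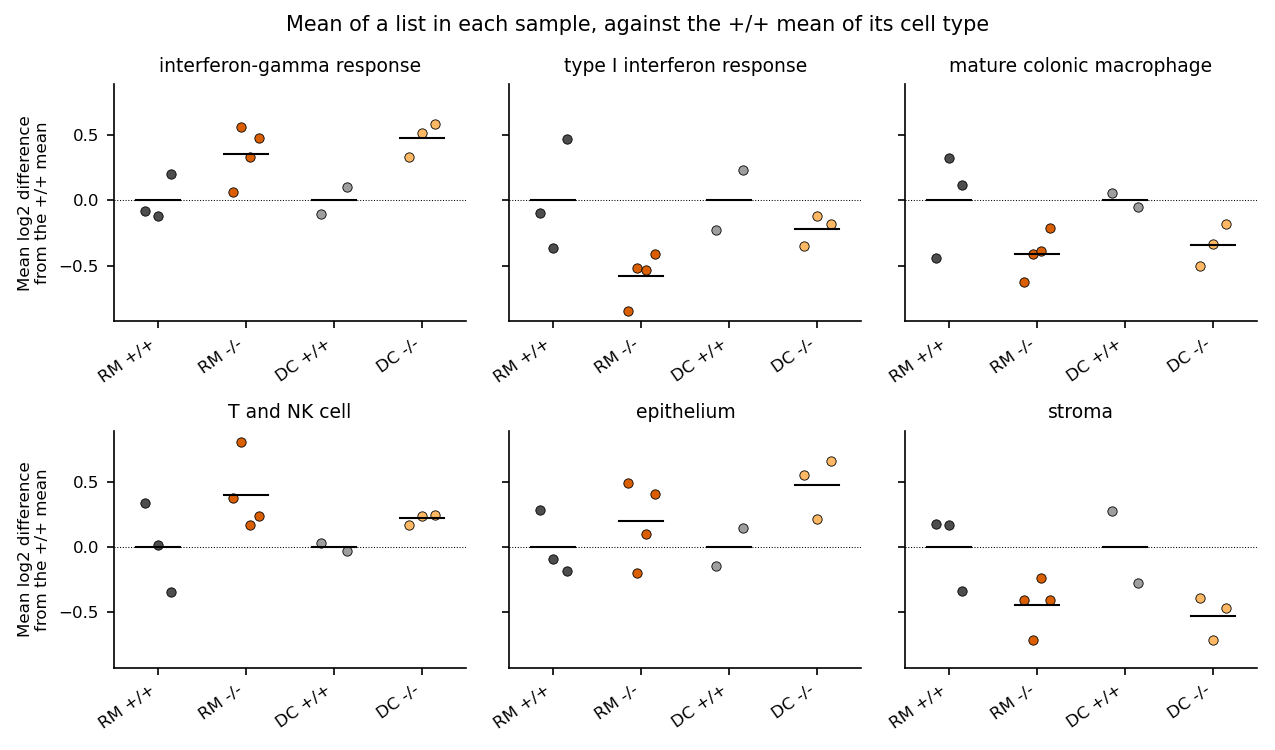
Mean over a list's members of the log2 difference from the +/+ mean of the same cell type, for each of the 12 samples; each point is 1 sample and the bar is the group mean. In RM the points of the genotypes are apart for the type I interferon list and overlap for the other 5, and in DC they overlap for the type I interferon list and are apart for the other 5.

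Ligands that act on T cells gave a mixed picture. Of 13 PD-1 ligands and costimulators, 5 lay above 0 and 8 below, with a median of -0.12: *Pdcd1lg2* rose, while *Tnfsf4*, the OX40 ligand, stood at -0.90, adjusted p = 0.282, *Tnfsf14*, also called LIGHT, at -0.62, adjusted p = 0.0703, and *Tnfsf9*, the 4-1BB ligand, at -0.62, adjusted p = 0.179. Among 30 chemokines, 13 lay above 0 and 17 below, the study's thresholds were met by 3 higher and 5 lower, and *Ccl24* rose. *Ccl4* and *Ccl3*, inflammatory chemokines, stood at -1.06, adjusted p = 0.0703 and -0.76, adjusted p = 0.133, and *Ccl8* at 1.01, adjusted p = 0.268. Among 23 cytokines, 9 lay above 0 and 14 below, 3 higher and 4 lower met the thresholds, and none passed the adjusted test. *Inhba* stood at 1.23, adjusted p = 0.181, *Il12a*, a subunit of IL-12, at 1.09, adjusted p = 0.0572, and *Mif* at 0.66, adjusted p = 0.0824. The lower ones were *Ifnb1* (-1.46) and the inflammatory *Tnf* (-1.17), both given above, the alarmin *Il33* at -1.18, adjusted p = 0.092, and *Il10*, an anti-inflammatory cytokine, at -1.09, adjusted p = 0.195.

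Of 10 genes of arginine and nitric oxide metabolism, 7 lay above 0 and 3 below, 4 were higher at the thresholds and 0 lower, and the median was 0.31. Besides *Nos2* and *Slc7a2* these were the arginases, which compete with Nos2 for arginine, *Arg1* at 1.21, adjusted p = 0.174 and *Arg2* at 0.74, adjusted p = 0.286. *Gch1*, which makes a cofactor of Nos2, stood at -0.47, adjusted p = 0.0934. Of 19 genes of glycolysis and the HIF-1 response, 16 lay above 0 and 3 below, with a median of 0.37 and 2 higher at the thresholds, *Tpi1*, a glycolytic enzyme, at 0.59, adjusted p = 0.205 and *Egln3*, a HIF prolyl hydroxylase, at 0.60, adjusted p = 0.263. *Hif1a* itself stood at 0.48, adjusted p = 0.0934. Among 15 redox genes 10 lay above 0 and 5 below, with *Gpx2*, an epithelial glutathione peroxidase, at 0.82, adjusted p = 0.15, *Slc7a11*, the cystine transporter, at 0.60, adjusted p = 0.107 and *Gpx3*, the secreted peroxidase, at -0.83, adjusted p = 0.113.

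The next lists cover IL-10, TGF-β, calcineurin, lipid mediators and complement. Of 12 genes of IL-10 signaling 1 lay above 0 and 11 below (median -0.18), and of 20 genes of TGF-β signaling 4 lay above and 16 below (median -0.14) with 0 at the thresholds in either direction. Of 11 genes of calcineurin and NFAT 2 lay above and 9 below (median -0.17), and *Rcan1* was the member that fell. Of 17 genes of prostaglandins and leukotrienes 5 lay above and 12 below, with a median of -0.32, 0 higher and 4 lower at the thresholds. *Hpgd*, which inactivates prostaglandin E2, stood at -0.85, adjusted p = 0.113, *Ptger2*, a receptor of it, at -0.74, adjusted p = 0.18, and the leukotriene enzyme *Alox5* at -0.69, adjusted p = 0.266. Of 18 complement genes 4 lay above and 14 below (median -0.19), *Cfb* being the member higher at the thresholds and *Cd59a* (-0.82) and *C3ar1* (-0.63) those lower.

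Identity genes of the sorted cells were described in the same way. Of 21 mature colonic macrophage genes 3 lay above 0 and 18 below, with a median of -0.39, 0 higher and 4 lower at the thresholds: *Fcrls*, *Il10*, *Mrc1*, the mannose receptor (-0.66, adjusted p = 0.274), and *Hes1*, a Notch target (-0.65, adjusted p = 0.334). In RM and in DC *Il10* differed by -1.09 and -1.09, *Mrc1* by -0.27 and -1.21, and *Hes1* by -0.87 and -0.34. The list mean was -0.44, 0.32 and 0.12 in +/+ RM, -0.62, -0.41, -0.39 and -0.21 in -/- RM, 0.05 and -0.05 in +/+ DC and -0.50, -0.33 and -0.18 in -/- DC. In RM the +/+ replicate 1 lay among the -/- samples, and in DC the genotypes were apart. Of 16 conventional DC genes 6 lay above and 10 below, with a median of -0.08 and 0 at the thresholds. Of 9 monocyte genes 5 lay above and 4 below, with *Hp*, haptoglobin (1.38), and *Plac8* (0.74) higher and *F13a1*, a coagulation factor (-1.25), and *Vcan*, a matrix proteoglycan (-0.89), lower at the thresholds. In RM and in DC the differences were 1.54 and 1.16 for *Hp*, 0.80 and 0.66 for *Plac8*, -0.45 and -2.38 for *F13a1*, and -0.59 and -1.33 for *Vcan*.

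**Figure D5:**
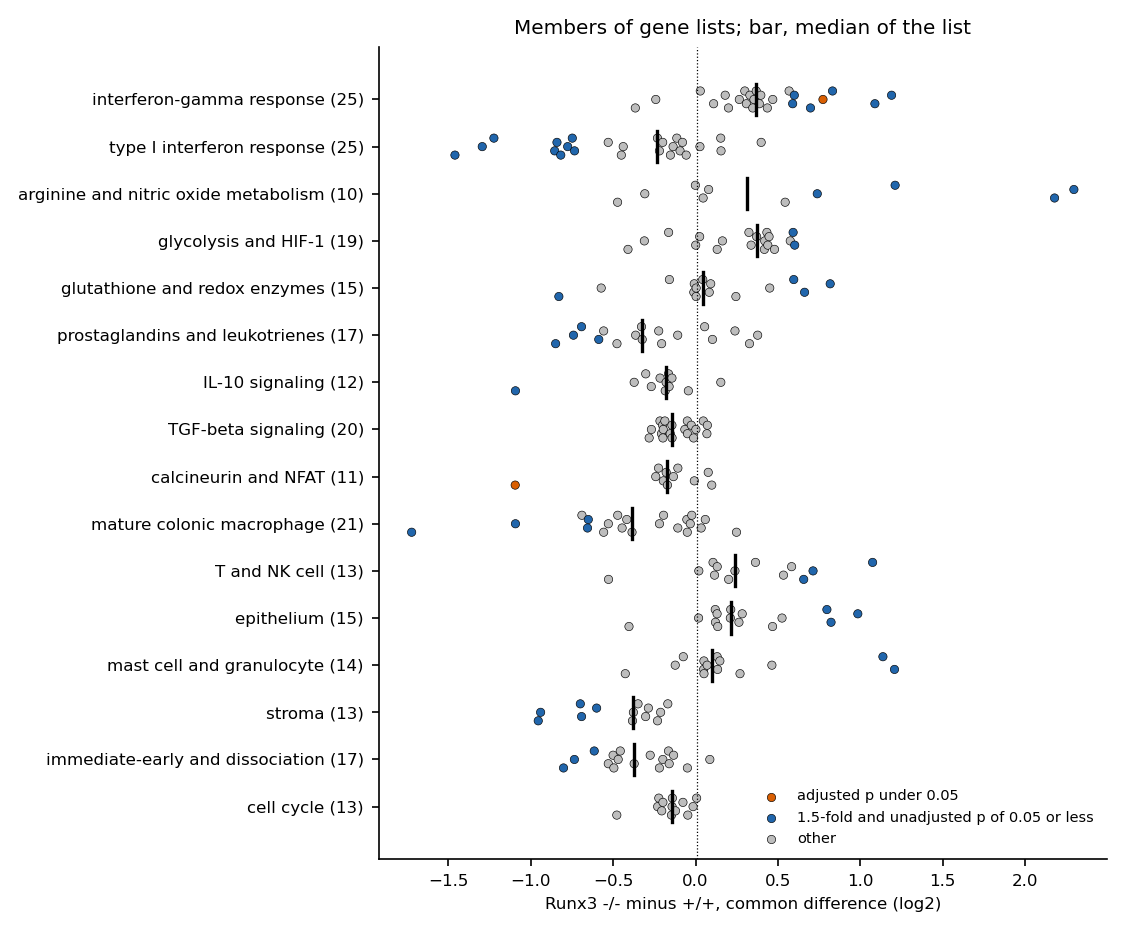
Common difference (Runx3 -/- minus +/+, log2) of each measured member of 16 gene lists, with the number of members in brackets; each point is a gene, the black bar is the list's median and the dotted line is the median of all genes. Points of the interferon-γ and glycolysis lists lie mostly to the right of 0, and those of the type I interferon, mature macrophage, stroma and immediate-early lists mostly to the left.

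Markers of cells outside the sort were read in the same way, and no member of the T and NK cell, epithelial, stromal or mast cell and granulocyte lists passed the adjusted test. Of 13 T and NK cell genes 12 lay above 0 and 1 below (median 0.24), with *Gzma* (1.07), *Nkg7* (0.71) and *Cd3g* (0.66) higher at the thresholds, and 2 members were under a level of 5 in all samples. The summed level of this list (log2 of the summed intensities) ran from 9.38 to 10.23 in +/+ RM, 9.82 to 10.71 in -/- RM, 9.93 to 10.14 in +/+ DC and 9.91 to 9.94 in -/- DC. T and NK cells are the usual source of interferon-γ, and the part of these markers in the interferon-γ list was not tested. Of 15 epithelial genes 14 lay above 0 and 1 below (median 0.21), with *Cdh17* (0.98), *Pigr* (0.82) and *Car1* (0.80) higher at the thresholds and 2 members under 5 throughout. In RM and in DC the differences were 0.30 and 1.96 for *Cdh17*, 0.60 and 1.14 for *Pigr*, and 0.17 and 1.69 for *Car1*. The summed epithelial level ran from 10.11 to 10.73 in +/+ RM, 10.07 to 11.00 in -/- RM, 10.20 to 10.48 in +/+ DC and 10.75 to 11.10 in -/- DC. *Dmbt1*, *Gpx2* and *Bcl2l14* are also expressed by gut epithelium, and the part of these cells in their differences was not tested.

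Of 13 stromal genes 0 lay above 0 and 13 below (median -0.38), with *Dcn* (-0.95), *Ogn* (-0.94), *Col14a1* (-0.70), *Fap* (-0.69) and *Col3a1* (-0.60) lower at the thresholds and 1 member under 5 throughout. The summed stromal level ran from 10.51 to 11.13 in +/+ RM, 10.13 to 10.71 in -/- RM, 10.17 to 10.90 in +/+ DC and 9.68 to 10.04 in -/- DC. *P3h2* modifies collagens, which stromal cells make, and the part of stromal cells in its fall was not tested. Of 14 mast cell and granulocyte genes 11 lay above and 3 below (median 0.10), with *Mcpt1* (1.21) and *Mcpt2* (1.14), proteases of mucosal mast cells, higher at the thresholds and 6 members under 5 throughout, at a summed level of 10.24 to 10.69 in +/+ RM, 10.39 to 10.83 in -/- RM, 10.93 to 11.33 in +/+ DC and 11.23 to 11.34 in -/- DC.

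Immediate-early genes respond within minutes to activation and handling, and none passed the adjusted test. Of 17 such genes 1 lay above 0 and 16 below (median -0.37), with *Egr1* (-0.80), *Ier2* (-0.74) and *Jun* (-0.61) lower at the thresholds, and their summed level ran from 14.95 to 15.85 in +/+ RM, 14.95 to 15.31 in -/- RM, 15.26 to 15.54 in +/+ DC and 14.88 to 15.17 in -/- DC. *Tnf*, *Ccl3* and *Ccl4* are induced on activation and handling too, and the part of handling in their differences was not tested. The share of each sex in a pool is not known, and sex-linked levels varied widely between samples. Of 4 measured sex-linked genes the median was -0.44, with *Eif2s3y* at -0.70 ± 1.17 (SE; adjusted p = 0.85) and *Xist* at 0.51 ± 1.68 (adjusted p = 0.934). Their list mean, against the +/+ mean of the cell type, ran from -1.60 in -/- DC replicate 1 to 0.94 in -/- RM replicate 4. These values do not show that the sexes were balanced between the genotypes, and the part of sex in the differences was not tested.

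Each list median given in the text above kept its sign in 17 alternatives that changed the scaling, the block or the cell type weights or left out a sample. Medians not given there turned in at least 1 alternative for the RUNX family, B and plasma cell, endothelium and cell cycle lists. The cell cycle median, -0.143, was 0.062 without +/+ RM replicate 1. The median of prostaglandins and leukotrienes, -0.324 over all samples, was -0.228 without -/- DC replicate 1. Without +/+ DC replicate 1 the medians came nearer to 0 for TGF-β signaling (-0.077), complement (-0.075), stroma (-0.221), epithelium (0.124) and conventional DC genes (-0.024). Without +/+ RM replicate 2 they came nearer to 0 for mature macrophage genes (-0.214) and calcineurin and NFAT (-0.100), and without -/- DC replicate 1 the cytokine median, -0.08 over all samples, was -0.010 and that of the sex-linked genes -0.023. The latter was -0.969 without +/+ RM replicate 1.

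The study drew up lists of genes higher or lower in both cell types from these same samples, so their direction here is no independent evidence. All 14 measured genes of the higher list were higher at the thresholds, 3 passed the adjusted test and 13 had no overlap in either cell type, among them *Gpnmb*, a lysosomal membrane protein (0.85, adjusted p = 0.0521), *Car2*, a carbonic anhydrase (0.86, adjusted p = 0.0586), and *Cd300lf*, an inhibitory receptor (0.89, adjusted p = 0.121). All 11 measured genes of the lower list were lower at the thresholds, 3 passed and 9 had no overlap, among them *Xlr* (-1.04, adjusted p = 0.0521) and *Abca9*, a lipid transporter (-0.99, adjusted p = 0.0618).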

How the data were processed

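The authors extracted RNA of sorted cecal cells pooled from 3-4 mice and hybridised it to Affymetrix mouse arrays. Per the labels and methods, intensities were normalised by RMA with GC correction in Partek, with mm9 as the build. The deposited values are log2 intensities, 1 column per sample, and were used as deposited. The methods name an exon array and the platform record a gene-level array, and rows were named with the annotation of the latter. Of 35556 rows, 21789 carry 1 symbol, 1621 several and 12146 none; 6617 of the latter open the table. Array medians ran from 5.33 to 5.52, and the number of arrays limits the precision.

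The common difference was fitted with limma 3.58.1 (lmFit, eBayes) in R 4.3.3 over all rows with cell type as covariate. Each cell type's difference and the interaction came from a fit of the 4 groups. P-values of limma were adjusted after Benjamini and Hochberg, and 0.05 was the threshold. Rows that met the study's own criteria (1.5-fold, unadjusted p up to 0.05) were counted as well, with limma's p in place of the study's ANOVA. A gene with several rows is shown by its brightest. Named were Runx3, up to 12 genes a direction by size among called rows, filled from non-overlapping rows at the study's thresholds (without predicted genes such as those named Rik), up to 4 members per list by p, the study's own lists, and 6 genes by interaction p. *Ssh2* and the unnamed or multiply named rows were chosen after their values were seen. The members, the lists and these rules were chosen with earlier results of these data known.

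Litter numbers come from the labels, which call the samples litter mates, and were used as a fixed block or, through statmod 1.5.0, a random one. Deviations from the group means had a median correlation of 0.0958 over 13 pairs of one litter and -0.0347 over 40 pairs of different litters. Other alternatives were weights, filters, scalings, row choices and leaving out each sample. Promoter windows are those of RefSeq. The fits were tested on simulated data. Python 3.11.15 with matplotlib 3.10.9 made the figures.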

Additional observations from a re-analysis of the deposited data

Results flagged for a closer look

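Among 117 named genes, the 4 -/- RM samples were examined for a value whose gap to its nearest neighbour took an unusual part of the group's range. Chance marks about 1 in 20 such groups, and 6 of the 117 genes were marked, which is about as many as chance would mark. For *Runx3* the gap of -/- RM replicate 1 was 0.895 of the range (level 10.18 against 9.85 to 9.88 in the others). The same replicate stood apart for *Cd300ld*, a receptor of the CD300 family (0.860; level 10.07 against 11.05 to 11.20), for *F13a1*, a coagulation factor (0.842; level 7.95 against 8.72 to 8.86), for *Stat3*, which transmits IL-10 signals (0.834; level 10.85 against 11.14 to 11.20), and for *Gch1*, which makes a cofactor of nitric oxide synthase (0.830; level 7.49 against 7.82 to 7.89). For *Mcpt2*, a mast cell protease, -/- RM replicate 4 stood apart (0.846; level 6.09 against 3.65 to 4.03). The other groups hold 2 or 3 samples and were not examined in this way.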

How the results depend on the processing

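Over all rows 16 rose and 9 fell. The counts were 0 and 0 with litter as a fixed replicate block and 20 and 12 with litter as a random one. They were 4 and 0 with both cell types weighted equally and 66 and 63 with array weights. With a test after the methods, applied here to the common difference and adjusted over all rows, they were 1 and 0. The study used an unadjusted p with a fold threshold, at which that test gave 130 and 182. The counts were 25 and 14 with a level of at least 5 in a sample and 7 and 5 with median centring. They were 46 and 99 with 1 row per gene, 44 and 95 with the mean of a gene's rows, and 58 and 71 without the leading unnamed rows. With an intensity trend and robust prior 3 rows fell. The following alternatives were chosen after seeing the data: litters with both genotypes gave 1 and 2, and the litter block with 1 row per gene 26 and 81. Leaving out each sample gave 1 to 57 rows upward and 0 to 68 downward, the highest without +/+ RM replicate 1. At the study's thresholds (149 and 222) the counts were 83 and 141 with 1 row per gene, 83 and 142 with the mean of rows, 74 and 128 with the block and 1 row per gene, and 137 to 174 and 158 to 437 leaving out a sample, 437 again without +/+ RM replicate 1. Median centring changed the share of higher rows from 40.2% to 33.1%. The interaction gave 0 rows in every setting. Of 3042 values of 117 named genes under alternatives, 2644 kept their direction and side of the threshold, 173 no longer passed, 216 came to pass and 9 turned in sign: *Cbfb* read 0.032 with array weights, 0.052 with quantile normalization and -0.027 to 0.044 leaving out a sample, and *Runx1* -0.133 to 0.024, with the turn without +/+ RM replicate 2. Leaving out a +/+ DC sample leaves 1, which is assumed to vary like the other groups. The causes of these changes were not tested.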
